A study of Mus musculus with 10 samples.

Results

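Genes of the pulmonary surfactant system and of the alveolar type 2 cell were followed in bulk messenger RNA of mouse lung. The 10 genes were taken by name as Sftpc, Sftpb, Sftpa1, Sftpd, Abca3, Lamp3, Napsa, Slc34a2, Etv5 and Lpcat1, and all 10 had a value in every library, among 17465 genes that did. Gene identifiers in the deposited count tables are Entrez numbers and were matched to symbols with a RefSeq gene table. The libraries come from whole lung of mice labelled as wild type and fall by their titles into C (n = 3), Hy (n = 4) and HE (n = 3). Hypoxic pulmonary hypertension, the same with aerobic exercise, and a wild-type state are the conditions in the series title, which ties none of them to a prefix. The treatment label is the same for all 10 libraries, and the labels say nothing of strain, sex, age, oxygen level or exercise schedule. Nothing states that the libraries are from separate animals, so p-values measure the spread between these libraries, which may be technical in part.

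Surfactant is a film of phospholipid and protein that lowers surface tension at the air side of the alveolus and keeps it from collapsing at the end of a breath. It is made by alveolar type 2 cells, which pack lipid and the small hydrophobic proteins SP-B and SP-C into lamellar bodies and release them by exocytosis. SP-A and SP-D are collectins, soluble lectins of innate defence that are secreted largely outside this route. Type 2 cells are also the progenitors of the flat type 1 cells that carry gas exchange, and the factor NKX2-1 is a known activator of several surfactant genes.

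Libraries held between 16560649 and 17804039 estimated counts. A gene set of 18713 has values in C and another of 17956 in Hy and HE, so C was tabulated apart. Every difference from C below cannot be told apart from that difference in tabulation, although the 10 genes are present in both tables. Hy3 stood apart in its red cell genes, with a summed 38391 CPM (counts scaled to library size with TMM factors) against 723 to 8786 in the other 9 libraries. Hy2 and Hy4 stood apart in neutrophil genes, of which 8 of 9 were tested, with 1519 and 2581 CPM against 93.0 to 289 in the other 8 libraries. C1, Hy4 and HE3 had the most cardiac muscle RNA of their groups, at 1365, 2132 and 1415 CPM, with 41.6 to 578 CPM in the others. In whole-lung RNA, fewer type 2 cells and less RNA per type 2 cell cannot be told apart.

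The 10 genes together took 1.45% to 3.28% of a library, and their levels ranged from 55.7 CPM for Etv5 in Hy2 to 17431 CPM for Sftpc in C3. Sftpc, a defining marker of type 2 cells, alone took 1.88%, 1.56% and 1.84% of counts in C1, C2 and C3, and by count it ranked 2 among all genes in 8 libraries and 3 in Hy3 and Hy4. Per kilobase of exon, the order of mean levels in C was Sftpc, Sftpb, Sftpa1, Slc34a2, Sftpd, Lamp3, Napsa, Lpcat1, Abca3 and Etv5. On that per-length scale Sftpc stood at 17056 ± 1698 CPM per kilobase (SD, n = 3, here without TMM factors) and Sftpb at 2495 ± 279. At the low end of the same scale Abca3 stood at 53.8 ± 10.7 and Etv5 at 31.4 ± 0.929. The neighbours Lamp3 (154 ± 28.6) and Napsa (127 ± 15.2) followed in this order in C. In Hy (n = 4) Napsa stood above Lamp3, at 91.3 ± 34.5 and 68.1 ± 39.6. Sftpd stood above Slc34a2 there, at 243 ± 75.8 and 182 ± 91.5, with overlapping SD ranges. In HE (n = 3) Napsa likewise stood above Lamp3, at 115 ± 28.4 and 77.6 ± 16.9. These SDs measure the spread between libraries and not the difference of 2 genes within a library. Within a library, the log2 ratio of Lamp3 to Napsa counts was 0.48 to 0.75 in C. It was -0.59 to 0.16 in Hy and -0.35 to -0.11 in HE, all before division by length.

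**Figure D1:**
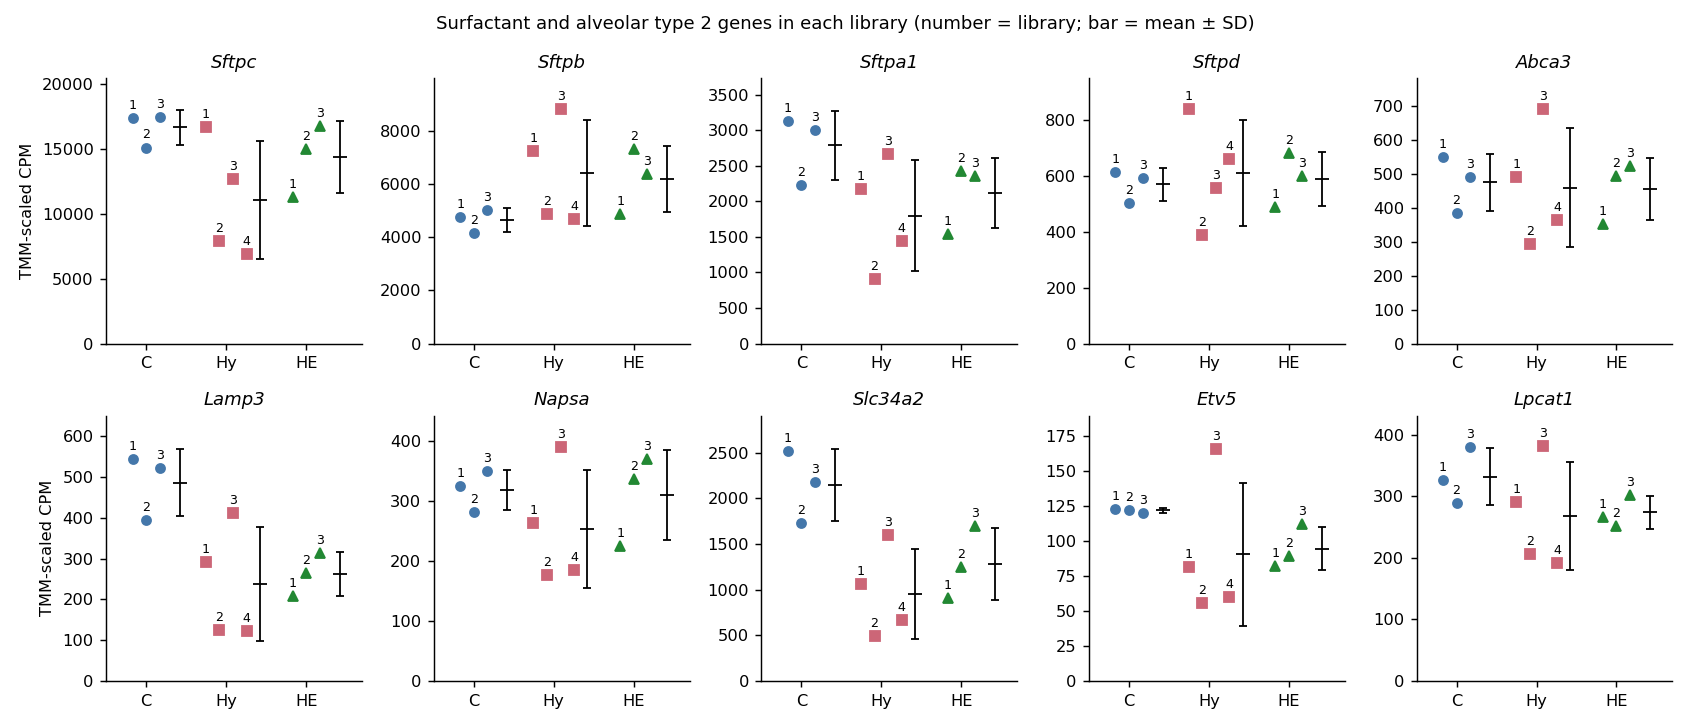
TMM-scaled CPM (vertical axes, linear from 0) of each gene in the 3 C, 4 Hy and 3 HE libraries. Each point is a library with its number, and the bar beside each group is the mean ± SD. Hy2 and Hy4 sit at the bottom of Hy for nearly every gene, and Slc34a2 is the gene whose Hy libraries all lie below C.

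Hy against C asked how the surfactant genes of hypoxic lungs differ from those of controls, if the prefixes are read in that way. One gene of the 10 was called, Slc34a2, which was lower in Hy. The other 9 were not called. Lamp3 came nearest to the threshold. With Hy3 left out, 6 of the 10 were called lower, with Hy1 left out Sftpc alone was, and with C1, C2, C3, Hy2, Hy4 or HE2 left out none was. Over all tested genes 40.6% were called without Hy3, 24.7% without Hy1 and 11.2% to 22.6% without each of the others named.

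The gene Slc34a2 encodes NaPi-IIb, the sodium-dependent transporter that takes phosphate up from the alveolar fluid into type 2 cells. It lies on chromosome 5 at positions 53049353 to 53071664 (GRCm38.p6). Its level was 2517, 1731 and 2175 CPM in C1, C2 and C3. In Hy1 to Hy4 it was 1062, 489, 1592 and 664 CPM, and in HE1 to HE3 it was 910.1, 1243 and 1694 CPM. All Hy and all HE libraries lay below the lowest C library, while Hy and HE overlapped. Slc34a2 thus fell, with means of 2141 ± 394 CPM for C (SD, n = 3) and 952 ± 489.7 CPM for Hy (SD, n = 4) and a log2 fold change of -1.17 (SE 0.37, edgeR quasi-likelihood test, Benjamini-Hochberg adjusted p = 0.041). Over 14766 tested genes 26.1% were called in this comparison and 11.0% were called lower, so 1 called gene of 10 is no more than that background. The groups did not overlap in 1 of the 10 genes, Slc34a2, against 33.6% of all tested genes.

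The Slc34a2 call rested on few libraries. The adjusted p was 0.119, 0.0706 and 0.103 without C1, C2 and C3, and 0.0602, 0.0762 and 0.101 without Hy1, Hy2 and Hy4. Without HE2, which enters through the shared spread, it was 0.0574. With the replicate number as a block it was 0.0634, with C and Hy alone in the fit 0.064, 0.256 when C1, Hy4 and HE3 were all left out, and 0.19 when Hy2 and Hy4 both were. The log2 fold change stayed negative in all 20 alternatives, between -1.55 and -0.71, and the lowest adjusted p was 0.00477, without Hy3.

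The gene Lamp3 encodes a lysosome-associated membrane protein that marks the limiting membrane of lamellar bodies (chromosome 16, positions 19653381 to 19706365). Its level was 544, 394 and 523 CPM in C, then 293, 124, 413 and 123 CPM in Hy1 to Hy4, and 208, 264 and 315 CPM in HE. Hy3 was the Hy library that reached into the range of C, and every HE library was below that range. For Hy against C the log2 fold change was -1.03, with an SE of 0.39 (edgeR adjusted p = 0.0767). DESeq2 called it (adjusted p = 0.0252), and so did edgeR without Hy3 (0.00949). The adjusted p lay between 0.00949 and 0.34 in the 20 alternatives.

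The promoters of Slc34a2 and Lamp3, the genes with the lowest folds, and of Sftpb and Sftpa1, whose folds had opposite signs, are shown to set their letters side by side. RefSeq promoters on GRCm38.p6 were at hand for 7 of the 10 genes, Slc34a2, Sftpb, Lpcat1, Sftpa1, Lamp3, Etv5 and Abca3. The 250 bases before the annotated start are printed 5′ to 3′ on the strand of the gene, with motif matches in capitals. Motifs were searched on both strands as plain letters, namely CTCAAG for NKX2-1, CCGGAA for ETS factors, GTAAACA for FOXA factors, TTGCNNAA for C/EBP factors and ACGTG for the hypoxia response core. None of the printed matches overlaps another.
Sftpb, chr6:72304360-72304609, plus strand: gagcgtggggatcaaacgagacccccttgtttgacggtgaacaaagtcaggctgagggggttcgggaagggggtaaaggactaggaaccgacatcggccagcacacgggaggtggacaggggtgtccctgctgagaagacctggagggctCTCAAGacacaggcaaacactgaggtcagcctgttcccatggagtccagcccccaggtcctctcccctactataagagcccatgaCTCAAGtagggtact
Sftpa1, chr14:41131538-41131787, plus strand: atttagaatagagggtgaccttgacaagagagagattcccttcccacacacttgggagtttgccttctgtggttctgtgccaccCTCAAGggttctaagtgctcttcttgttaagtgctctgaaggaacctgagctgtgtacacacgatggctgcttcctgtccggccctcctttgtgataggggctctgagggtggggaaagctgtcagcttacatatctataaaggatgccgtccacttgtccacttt
Slc34a2, chr5:53049103-53049352, plus strand: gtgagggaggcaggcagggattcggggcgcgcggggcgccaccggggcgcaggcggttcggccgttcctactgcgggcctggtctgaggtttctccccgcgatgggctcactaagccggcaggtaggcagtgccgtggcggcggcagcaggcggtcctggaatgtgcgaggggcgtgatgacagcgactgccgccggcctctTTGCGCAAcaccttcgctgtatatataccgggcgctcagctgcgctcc
Lamp3, chr16:19706366-19706615, minus strand: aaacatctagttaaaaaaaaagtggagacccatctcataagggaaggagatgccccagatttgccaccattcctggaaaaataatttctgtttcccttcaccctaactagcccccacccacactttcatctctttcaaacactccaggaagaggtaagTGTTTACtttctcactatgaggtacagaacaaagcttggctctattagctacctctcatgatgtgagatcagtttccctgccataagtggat
The NKX2-1 letters stood 100 and 15 bases before the start of Sftpb and 166 bases before that of Sftpa1. They were in 2 of the 7 genes and in 13.3% of 32851 promoters of the same length. The C/EBP letters stood 48 bases before Slc34a2 (1 of 7 genes, 9.56% of all promoters) and the FOXA letters 92 bases before Lamp3 and in 1 of the Etv5 promoters (2 of 7 genes, 3.17%). ETS letters were found in Abca3 alone of the 7 (12.0% of all promoters), and the hypoxia response letters in Etv5 and Lpcat1 (16.6%). A match describes the letters in this window and shows no binding. Sftpb and Sftpa1 share the NKX2-1 letters, and their log2 fold changes in Hy, neither of them called, are given next.

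The genes of the hydrophobic surfactant proteins had folds of opposite sign, neither of them called. Sftpc encodes SP-C, the short membrane-spanning peptide made in the lung by type 2 cells (chromosome 14, positions 70520941 to 70524081). Its level was 17400, 15094 and 17431 CPM in C, 16684, 7897, 12644 and 6882 CPM in Hy1 to Hy4, and 11311, 14992 and 16720 CPM in HE. Hy1 lay within the range of C, and Hy2 and Hy4 were the lowest of all 10 libraries. The log2 fold change of Hy against C was -0.59, with an SE of 0.30 (edgeR adjusted p = 0.16). Sftpc was called in 1 alternative, without Hy1 (adjusted p = 0.0375), and the adjusted p reached 0.634.

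The gene Sftpb encodes SP-B, without which lamellar bodies and the surface film do not form (chromosome 6, positions 72304610 to 72314373). It was the member with the highest fold in Hy. Its level was 4739, 4140.3 and 5021 CPM in C, 7230.1, 4879, 8826 and 4698 CPM in Hy1 to Hy4, and 4870.3, 7323 and 6386 CPM in HE. Hy1 and Hy3 exceeded every C library, while Hy2 and Hy4 stayed within the range of C. The log2 fold change was 0.47, with an SE of 0.25 (edgeR adjusted p = 0.187, 0.0747 to 0.391 over all alternatives), so Sftpb did not pass in any of them.

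The collectin genes lie near each other on chromosome 14. Sftpa1, for SP-A (positions 41131788 to 41136373), had 3124, 2232 and 3001 CPM in C, 2178, 906, 2669 and 1444 CPM in Hy, and 1545, 2432 and 2359.6 CPM in HE. Hy2 was the lowest of all libraries and Hy3 lay within the range of C. Its log2 fold change in Hy was -0.63 (SE 0.33, adjusted p = 0.179 by edgeR), and it was called without Hy3 alone (0.0428, with 0.625 the highest over all alternatives). Sftpd, for SP-D (positions 41172212 to 41185198), had 614, 504 and 594 CPM in C, 841, 388, 557 and 660.4 CPM in Hy, and 489, 682 and 601 CPM in HE. Hy spanned the whole range of the other groups. The log2 fold change was 0.10 (SE 0.24), and an interval of 2 SE on each side ran from -0.37 to 0.57.

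None of the genes for lamellar body lipid and protein processing was called. Abca3 encodes the transporter that loads phospholipid into lamellar bodies (chromosome 17, positions 24351921 to 24410204) and overlaps Abca17, so their reads are uncertain where the strand is unknown. It had 551, 384 and 490.3 CPM in C, 491, 292, 690 and 364 CPM in Hy, and 352, 493 and 524 CPM in HE. The libraries of Hy enclosed those of C, and the log2 fold change was -0.05, with an SE of 0.28 (edgeR adjusted p = 0.91). Napsa, the aspartic protease napsin A that cleaves the SP-B precursor (chromosome 7, positions 44572445 to 44586846), had 324, 282 and 349.5 CPM in C, 263, 176, 389.7 and 185 CPM in Hy, and 225, 336 and 369 CPM in HE. Lpcat1, the acyltransferase that remodels phosphatidylcholine towards its dipalmitoyl form (chromosome 13, positions 73467231 to 73516420), had 327, 289 and 381 CPM in C, 290.4, 206, 382 and 192 CPM in Hy, and 267, 252 and 303 CPM in HE. In both genes Hy3 was above every C library and Hy2 and Hy4 were below. Their log2 fold changes in Hy were -0.33 (SE 0.28) and -0.31 (SE 0.23), with edgeR adjusted p-values of 0.397 and 0.331.

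The gene Etv5 encodes an ETS transcription factor that acts below FGF receptors and maintains type 2 cell identity in mice (chromosome 16, positions 22381313 to 22439570). Its level was 123, 122 and 119.8 CPM in C, 81.5, 55.7, 166 and 59.7 CPM in Hy, and 82.4, 89.2 and 112 CPM in HE. The C libraries differed by a coefficient of variation of 1.44%, whereas in Hy it was 56.5%, with Hy3 above C and the other 3 Hy libraries below it. The log2 fold change of Hy against C was -0.43, with an SE of 0.33 (edgeR adjusted p = 0.355), and without Hy3 it was -0.90 (SE 0.16, adjusted p = 0.00228).

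**Figure D2:**
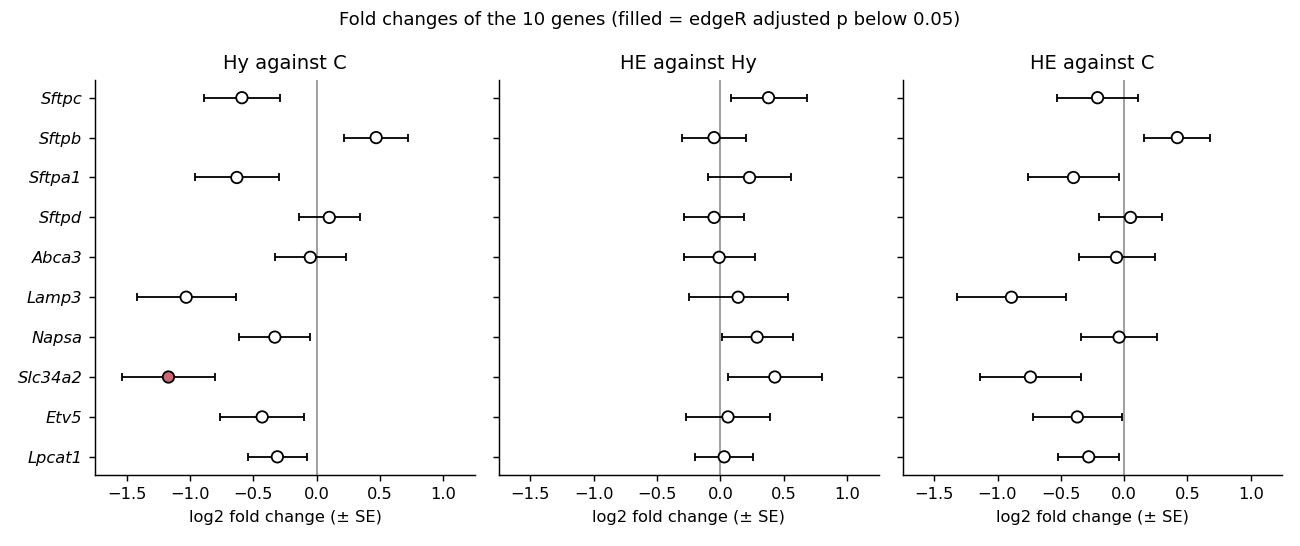
Log2 fold changes with SE (horizontal axes) of the 10 genes in the 3 comparisons, with filled points for an edgeR adjusted p below 0.05. The single filled point is Slc34a2 in Hy against C at -1.17, and Sftpb lies on the side opposite to Slc34a2 and Lamp3 in both comparisons with C.

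Over the 10 genes the median log2 fold change of Hy against C was -0.38, with 8 below 0 and 2 above, beside 0.03 over all tested genes. Hy2 was the lowest Hy library in 6 of the genes and Hy4 in the other 4, and Hy3 was the highest in 8. The SD of log2 CPM within Hy ran from 0.44 (Sftpb) to 0.88 (Lamp3), and the median of all tested genes was 0.32. Within C it ran from 0.02 (Etv5) to 0.27 (Abca3, Sftpa1 and Slc34a2), with 0.15 over all genes, and within HE from 0.14 (Lpcat1) to 0.45 (Slc34a2), with 0.18 over all genes. When Hy2 and Hy4 were left out, the median of the 10 genes was 0.00, with 5 below 0 and 5 above. Without Hy3 it was -0.65. In that fit Sftpa1, Lamp3, Napsa, Slc34a2, Etv5 and Lpcat1 were called lower. There 40.6% of all tested genes were called and 19.0% were called lower. The directions of both shifts of the median follow from the order of the Hy libraries given above, which was read from the same values. By edgeR 5 of the 8 tested neutrophil genes, 1 of 5 red cell genes and 0 of 7 cardiac genes rose in Hy against C. Over all tested genes 15.1% rose. The part of neutrophil, red cell or cardiac RNA in these values was not tested.

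**Figure D3:**
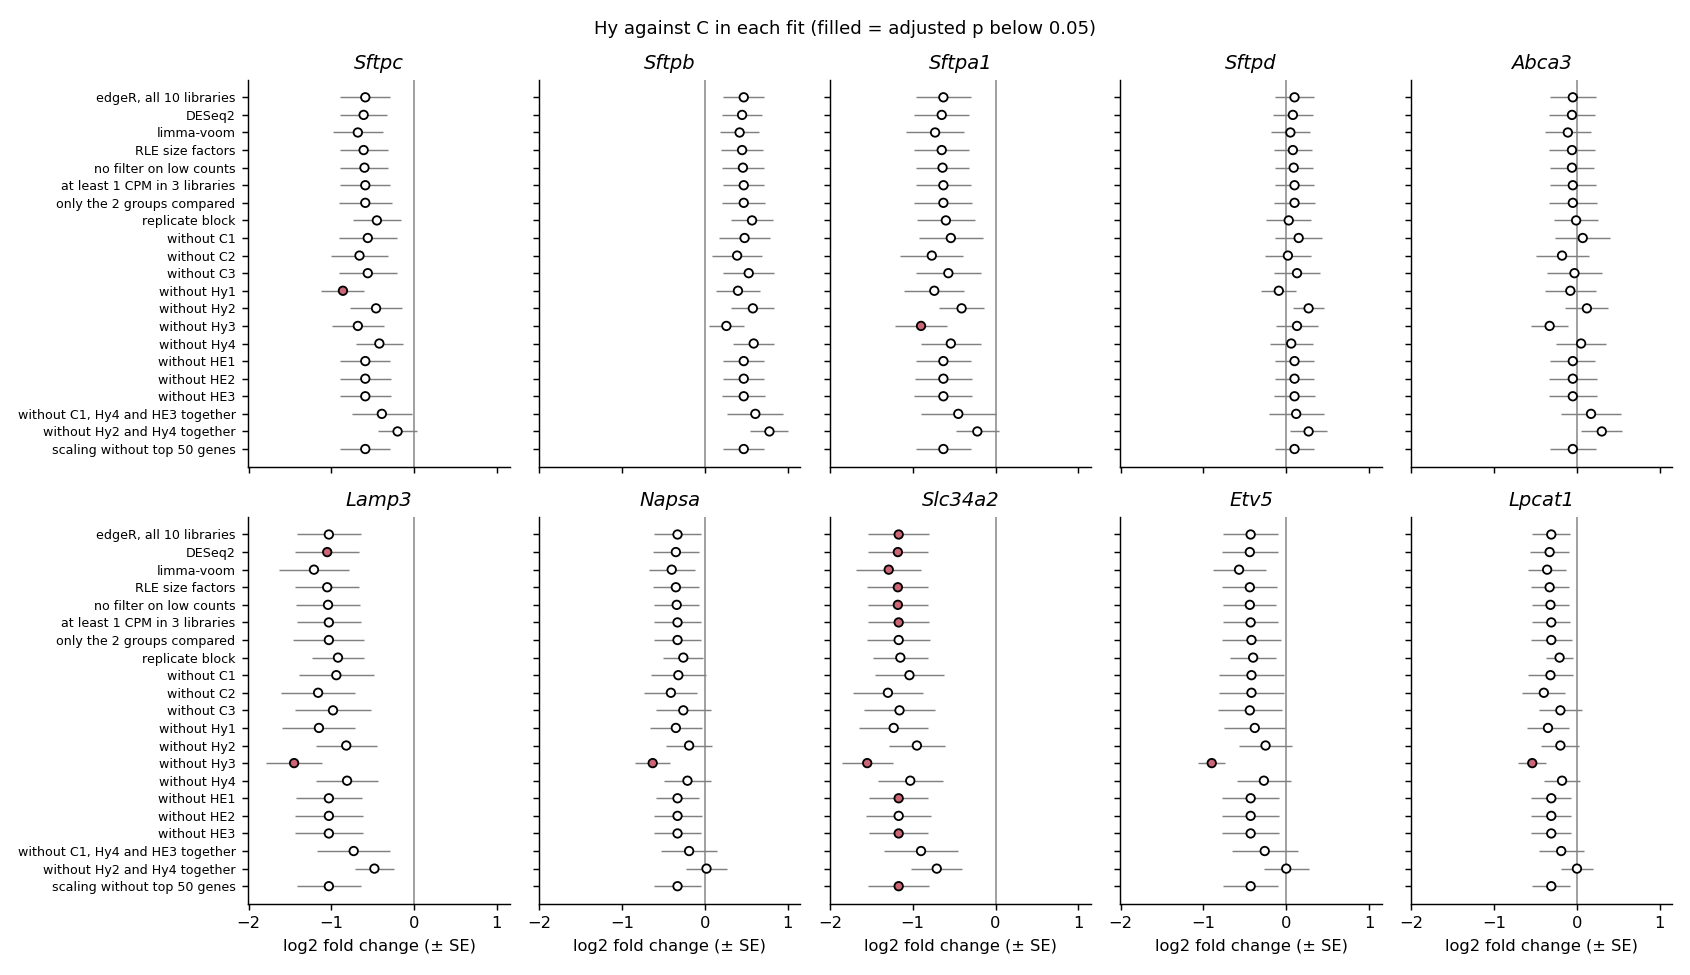
Log2 fold change with SE of each gene for Hy against C (horizontal axes) in the edgeR fit of all 10 libraries and in 20 alternatives (rows), with filled points for an adjusted p below 0.05. The row without Hy3 holds 6 filled points, and the row that leaves out Hy2 and Hy4 holds none.

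Ratios between the genes within a library do not depend on how libraries are scaled. They were computed after the levels had been seen. Of the 45 pairs among the 10 genes, 22 had ratios that did not overlap between Hy and C, against 30.5% of all pairs of tested genes with counts in every library. Sftpb took part in 8 of the 22, and Slc34a2 in 7. Pairs that share a gene are not independent, so in no comparison do these counts test an excess over all pairs. The count of Sftpb per count of Sftpc was 0.272, 0.274 and 0.288 in C, 0.433, 0.618, 0.698 and 0.683 in Hy1 to Hy4, and 0.431, 0.488 and 0.382 in HE. Both Hy and HE lay above C with no overlap, and Hy1 lay within the range of HE. The ratio was 2.15-fold higher in Hy than in C (exact two-sided permutation test, p = 0.0571, n = 4 and 3) and 1.55-fold higher in HE than in C (exact p = 0.1, n = 3 and 3). These are the smallest p-values that the numbers of libraries allow, and any pair of genes without overlap gives them. Of all pairs, 30.5% had no overlap in Hy against C and 46.9% in HE against C. HE against Hy gave a ratio of 0.722 (exact p = 0.114, n = 3 and 4).

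Club cells of the airways also make SP-B, SP-A and SP-D. All 7 club cell markers were tested and 0 were called in Hy against C, against 26.1% of all tested genes. Scgb1a1, the club cell secretory protein and most of the sum below, had a log2 fold change of 1.19 (edgeR adjusted p = 0.0637), and was called by DESeq2 (0.0107) and without Hy3 (0.00102), with 0.335 the highest adjusted p over the alternatives. They summed to 36813 to 39969.7 CPM in C, to 106003, 77287, 25626 and 96431 CPM in Hy1 to Hy4, and to 44545 to 64036 CPM in HE. Hy3 had the lowest club cell sum of all libraries and the highest count of Sftpb per count of Sftpc. The part of club cell RNA in these ratios was not tested.

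Against Slc34a2, the log2 ratio of Sftpb was 0.91, 1.26 and 1.21 in C, 2.77, 3.32, 2.47 and 2.82 in Hy, and 2.42, 2.56 and 1.91 in HE. The mean log2 ratio was 1.72 higher in Hy than in C and 1.17 higher in HE than in C. Hy3, whose levels lay within or above the range of C in 8 of the 10 genes, kept the higher ratio of Sftpb to Sftpc and to Slc34a2. The exception for Sftpb was its ratio to Sftpd, which overlapped between Hy and C. All these ratios set C libraries against others, so the separate tabulation bears on them as it does on the levels.

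**Figure D4:**
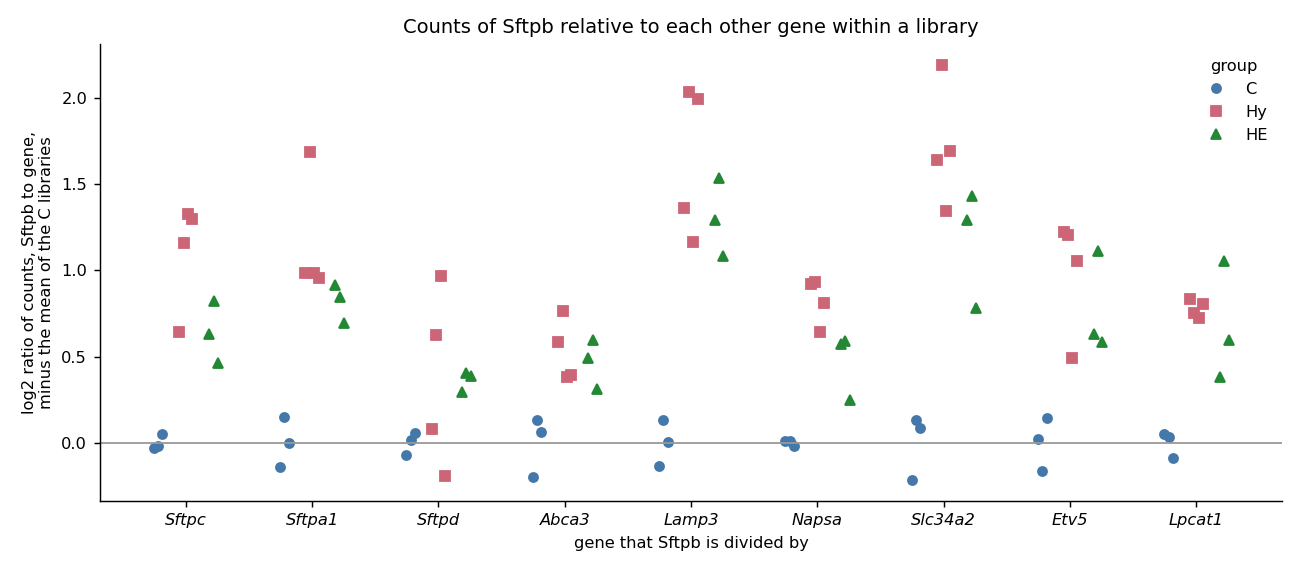
Log2 ratio of the counts of Sftpb to those of each other gene in each library, minus the mean of the 3 C libraries (vertical axis), by the gene that Sftpb is divided by (horizontal axis). Hy (squares) and HE (triangles) lie above C (circles) for all genes except Sftpd, where Hy4 lies below C.

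HE against Hy asked whether exercise in hypoxic mice changed these genes, under the same reading, and both groups were tabulated alike. None of the 10 was called, as was none of the 14766 tested genes (0%) by edgeR. At an unadjusted p under 0.05 there were 0 of the 10 genes and 733 of all genes, and DESeq2 called 0 of the 10 and 48 of all. The median log2 fold change over the 10 was 0.10, beside -0.01 over all genes, with 7 above 0 and 3 below. That tally changed with the libraries used. The median was -0.08 without Hy2, 0.47 without Hy3, -0.04 without Hy4 and -0.03 without HE3, and it was 0.20 without Hy1 and 0.22 without HE1. With Hy2 and Hy4 both left out it was -0.26, with 10 below 0. The 2 greatest were Slc34a2 at 0.43 (SE 0.37) and Sftpc at 0.38 (SE 0.30), each with an edgeR adjusted p of 1.00. Intervals of 2 SE on each side ran from -0.31 to 1.17 for Slc34a2 and from -0.21 to 0.97 for Sftpc, and both hold 0. The HE libraries overlapped those of Hy in all 10 genes, whereas 4.50% of all tested genes did not overlap (2.26% lower in HE). With Hy2 and Hy4 left out the log2 fold changes of Slc34a2 and Sftpc were -0.05 and -0.03. Pair ratios did not overlap in 4 of 45 pairs, beside 4.69% of all pairs. These were Sftpb with Sftpa1 and Napsa, and Abca3 with Napsa and Slc34a2, and their mean log2 ratios were 0.34, 0.35, 0.29 and 0.48 lower in HE.

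HE against C gave 0 called genes of the 10, where 20.4% of all tested genes were called and 8.66% were called lower. At an unadjusted p under 0.05 there were 0 of the 10 genes and 5317 of the 14766 tested genes. DESeq2 called 0 of the 10 and 27.2% of all tested genes. This comparison shares its C libraries with Hy against C. The groups did not overlap in Lamp3, Slc34a2 and Etv5, all 3 lower in HE, against 51.7% of all tested genes, or 25.0% in that direction. Lamp3 had a log2 fold change of -0.89 (SE 0.43, edgeR adjusted p = 0.16) and Slc34a2 of -0.74 (SE 0.40, adjusted p = 0.207). Etv5 had -0.37 (SE 0.35, adjusted p = 0.488). With HE and C alone in the fit all 3 were called (adjusted p = 0.00904, 0.0453 and 0.0391), where 37.3% of all tested genes were called and 18.9% were called lower, and Lamp3 also when Hy2 and Hy4 were left out (0.0238). Sftpb had a log2 fold change of 0.42 (SE 0.26, adjusted p = 0.281). The medians were -0.25 over the 10 genes and 0.02 over all genes. Of the 45 pairs, 27 had ratios that did not overlap, against 46.9% of all pairs, and all 9 pairs with Sftpb were among them.

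Other genes of the type 2 cell and of its control were read from lists. Over all tested genes 26.1% were called in Hy against C, 15.1% higher and 11.0% lower. The counts of each list stand beside these shares. Of 16 further type 2 markers, 5 fell in Hy against C and 11 did not pass, with a median log2 fold change of -0.78. Cldn18, the tight junction claudin of the alveolus, fell from 1207 ± 62.3 to 615 ± 145 CPM (log2 fold change -0.97, edgeR adjusted p = 0.00579), and Lyz1 and Lyz2, lysozymes of type 2 cells and macrophages, fell as well (log2 fold change -1.54 with adjusted p = 0.0116, and -0.86 with 0.0365). Among 14 transcription factors of the lung epithelium, 3 rose, 2 fell and 9 did not pass. Nkx2-1 had 207, 228 and 217 CPM in C and 366, 274, 466 and 337 CPM in Hy, with no overlap (log2 fold change 0.73, adjusted p = 0.0186), and 317, 384 and 276 CPM in HE. Foxa2, a forkhead factor of the same epithelium, had 40.1, 51.8 and 50.5 CPM in C and 96.3, 88.8, 70.8 and 146 CPM in Hy (log2 fold change 1.08, adjusted p = 0.00881). So in the same libraries Nkx2-1 and Foxa2 rose while Slc34a2 fell. Cebpa, a factor of type 2 maturation, did not pass (log2 fold change 0.23, adjusted p = 0.394).

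Of 11 genes of FGF signalling, 2 fell and 9 did not pass, where 11.0% of all tested genes fell. Fgfr2, the receptor above Etv5 in lung epithelium, fell from 140.5 ± 15.1 to 90.2 ± 17.8 CPM (edgeR adjusted p = 0.0182). Of 18 genes of fatty acid and phospholipid synthesis, 1 rose (Srebf1), 4 fell and 13 did not pass. Over all tested genes 15.1% rose and 11.0% fell. Chka, choline kinase, the entry to phosphatidylcholine synthesis, fell from 142 ± 3.84 to 82.8 ± 14.4 CPM and Gpam, a glycerol phosphate acyltransferase, from 168 ± 19.7 to 97.7 ± 17.2 CPM (adjusted p = 0.00548 and 0.00568). The desaturase gene Scd1 and the fatty acid synthase gene Fasn stayed above the threshold (log2 fold change -0.61 for Scd1 and 0.15 for Fasn, adjusted p = 0.385 and 0.786). Of 14 genes of lamellar body traffic, surfactant secretion and clearance, 2 rose, 2 fell and 10 did not pass, beside the same shares. Adgrf5, a receptor that restrains the surfactant pool in mice, did not pass (log2 fold change -0.31, adjusted p = 0.163).

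The rule that chose genes from these lists and from the transitional, type 1 and general epithelial lists named 23 called genes for Hy against C. The calls of 6 of them, among which were Cldn18, Foxa2, Chka, Gpam and the splicing factor gene Esrp2, held in every fit that left out 1 library. Without C1, C2 or C3 there were 9, 12 and 14 calls lost, with adjusted p up to 0.109, 0.118 and 0.0997. Without Hy1, Hy2 or Hy4 there were 3, 7 and 7 lost, with adjusted p up to 0.0564, 0.0766 and 0.0855. Nkx2-1 was among those lost without each C library, and Fgfr2 among those lost without C1 or C3. Lyz1 lost its call without C3. With the replicate block 12 of the 23 were lost, Nkx2-1 and Fgfr2 included, 15 of the 23 were lost when Hy2 and Hy4 were left out, and all 23 when C1, Hy4 and HE3 were (adjusted p = 0.0666 to 0.213). The Lyz2 call was lost in 10 of 20 alternatives, with an adjusted p of 0.121, 0.0501 and 0.109 without C1, C2 and C3, of 0.0593, 0.0873 and 0.0858 without Hy1, Hy2 and Hy4, and of 0.0518 without HE3. With the replicate block it was 0.113.

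The summed level of the 10 genes was 15414 CPM in Hy2 and 15272 CPM in Hy4, against 29413 and 28328 CPM in Hy1 and Hy3, 25173 to 30264 CPM in C and 20259.8 to 29384 CPM in HE. The 16 other type 2 markers summed to 3302 and 3437 CPM in Hy2 and Hy4 and to 4078 CPM or more elsewhere. The 14 type 1 markers summed to 10335 CPM in Hy2 and 11699 CPM in Hy4, within 10335 to 13726 CPM over all libraries. The 12 general epithelial markers summed to 1565 and 2042 CPM there, within 1460.3 to 2053 CPM over all libraries. The 18 lipid synthesis genes summed to 2605 and 2649 CPM there and to 2945 CPM or more elsewhere. Both type 2 lists and the lipid list were thus lowest in the libraries highest in neutrophil genes. Sums are carried by the abundant genes of a list. As a mean over genes of centred log2 CPM, the type 1 list was also lowest in Hy2 and Hy4 (-0.38 and -0.19), and the general epithelial list was lowest in Hy2 (-0.25) and stood at 0.18 in Hy4.

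**Figure D5:**
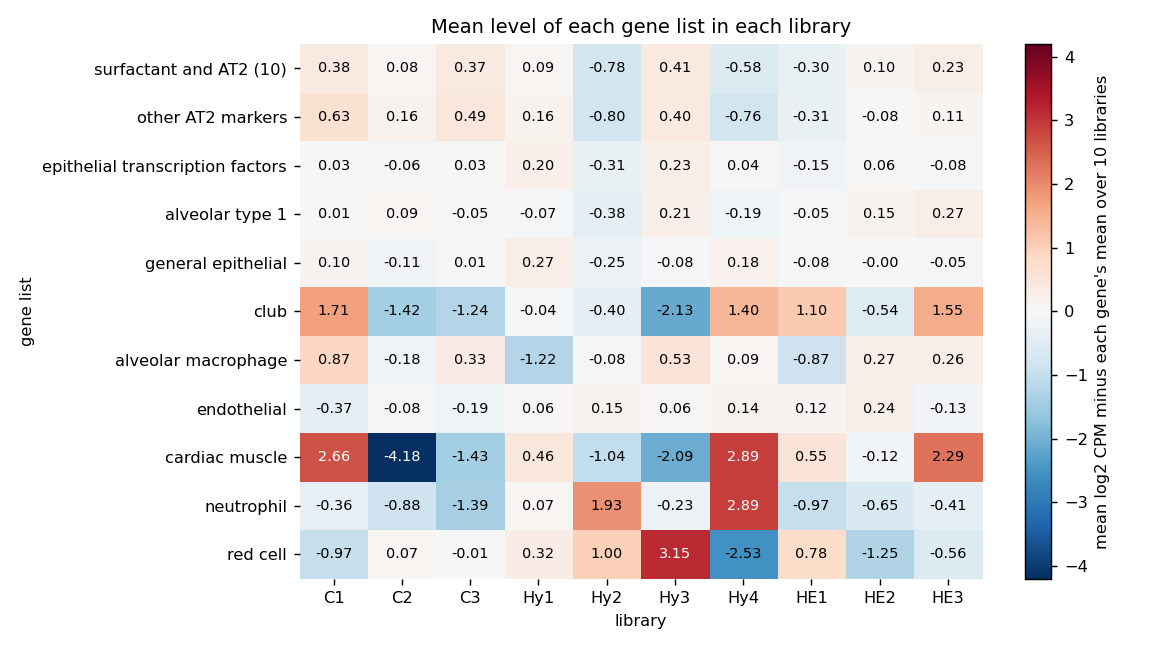
Mean over each gene list of log2 CPM minus the gene's mean over the 10 libraries (colour and printed value), by library (horizontal axis) and list (vertical axis). The 10 surfactant and type 2 genes read -0.78 in Hy2 and -0.58 in Hy4, where the neutrophil list reads 1.93 and 2.89, and 0.41 in Hy3, where the red cell list reads 3.15.

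Likeness to Sftpc was measured as the root mean square distance between log2 CPM profiles over the 10 libraries, each centred on its own mean. The nearest 5 genes outside the list were Col4a6, Fbln5, Ttf2, Ang and Klhl6, at 0.18, 0.18, 0.18, 0.19 and 0.20 on the log2 scale. Among the 14766 tested genes, Napsa ranked 47 in nearness to Sftpc (0.26), Sftpa1 ranked 84 (0.28) and Lpcat1 ranked 128 (0.29). Slc34a2 ranked 1661 (0.40), and Sftpb ranked 5392 (0.50), the farthest of the 9 other members. The distance counts the size of changes as well as their direction, so a gene that varies more than Sftpc in the same direction also lies far. The SD of log2 CPM within Hy was 0.75 for Slc34a2 and 0.88 for Lamp3, beside 0.59 for Sftpc. The profile of Sftpb thus departed more from that of Sftpc than the profile of Napsa, the protease of the SP-B precursor, did.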

How the data were processed

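Messenger RNA of 10 lung libraries was sequenced from oligo(dT)-selected, randomly primed RNA, per the labels' protocols, which do not state whether strand was kept. Each deposited file holds, for 1 library, estimated counts that were not normalised, and between 91.0% and 93.6% of them are whole in a library. HISAT2 2.0.4, Bowtie2 2.2.5, RSEM 1.2.12, DESeq 1.4.5 and build GRCm38.p6 are named, per the submitters' processing notes, with roles and annotation release not given in the sources used here.

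Counts were rounded to whole numbers. The 17465 genes with a value in every library were filtered with edgeR 4.0.16 (filterByExpr, R 4.3.3), which left 14766, all 10 members included. The 3 groups were fitted together with TMM factors and a robust quasi-likelihood test with 7 residual degrees of freedom, and a gene was called where its p, adjusted after Benjamini and Hochberg over all tested genes, was below 0.05. The test was checked on simulated data. Adjusted p-values are edgeR's unless another tool is named. Exact permutation tests used scipy 1.17.1. Per-length levels divide CPM, here relative to the plain library total, by the exon union of GENCODE vM21. Fold changes carry an SE from the same fit, and CPM are means ± SD over libraries. For edgeR the SE was back-calculated, as the absolute log2 fold change divided by the square root of the F statistic of the test.

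Alternatives were DESeq2 1.42.0, limma-voom (limma 3.58.1), other size factors (RLE), a minimum of 1 CPM in 3 libraries or no filter, scaling without the 50 most abundant genes, a fit of 2 groups alone, a block for the replicate number, and libraries left out. Same-numbered C and Hy libraries correlated in their deviations from group means (0.12, 0.25 and 0.13 over genes). Without values for differently numbered libraries these correlations do not establish pairing, which no label states. In HE against Hy the correlations were -0.04, 0.06 and -0.02, and in HE against C they were -0.1, 0.19 and -0.26. Hy4 shares its number with no library and takes no part in the blocked fit. The members and lists were chosen with earlier results of these data known. Genes outside the list were named by a rule, namely 14 fixed genes, up to 3 called genes with the smallest p in each of 16 lists and comparison, and the 5 nearest to Sftpc. Of these, the called genes of the non-epithelial lists are not described.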

Additional observations from a re-analysis of the deposited data

How the results depend on the processing

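All values rest on 3 or 4 libraries a group, and C was tabulated apart. Of the 10 genes, 1 was called in Hy against C, where 26.1% of all tested genes were. The count was 2 with DESeq2 (32.4% of all tested genes called), 0 with only the groups compared (18.5%) and 0 with the replicate block (11.8%). It was 0 when C1, Hy4 and HE3 were left out (2.44%) and 0 when Hy2 and Hy4 were (7.19%). It was 0 to 6 when 1 library was left out, where 11.2% to 40.6% of all tested genes were called. In HE against C, 0 were called (20.4% of all tested genes), but 3 with only the groups compared (37.3%) and 1 without Hy2 and Hy4 together (21.2%). HE against Hy gave 0 in all 20 alternatives. Over all genes the calls ran from 360 to 5973 in Hy against C (3850 in the edgeR fit), from 498 to 5408 in HE against C (3013) and from 0 to 48 in HE against Hy (0). The replicate block gave 1745, 2669 and 0. The causes were not tested.

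Among the genes named in the text or by the rule, no called value changed direction, while uncalled values did. In Hy against C without Hy2 and Hy4 together this held for Abca3 (0.30), Napsa (0.02) and Etv5 (0.00), and Abca3 also without C1, Hy4 and HE3 together (0.17). Epcam, a general epithelial marker, read 0.00 in edgeR, -0.01 with DESeq2 and with RLE factors, -0.02 with limma-voom, -0.00 with no filter and -0.08 with the replicate block. In HE against Hy without Hy2 and Hy4 together it held for Sftpc (-0.03), Sftpa1 (-0.19), Lamp3 (-0.42), Napsa (-0.07), Slc34a2 (-0.05), Etv5 (-0.38) and Lpcat1 (-0.29), and without C1, Hy4 and HE3 together for Lamp3 (-0.23), Etv5 (-0.23) and Lpcat1 (-0.17). With the replicate block Sftpd read 0.05, Etv5 -0.00 and Lpcat1 -0.06, and with limma-voom Abca3 read 0.04.

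Leaving out 1 library at a time also changed signs of uncalled values. In Hy against C the log2 fold changes then ran from -0.09 to 0.27 for Sftpd, from -0.33 to 0.12 for Abca3, from -0.28 to 0.44 for Fasn and from -0.11 to 0.11 for Epcam. In HE against Hy they ran from -0.19 to 0.14 for Sftpb, from -0.22 to 0.14 for Sftpd, from -0.18 to 0.25 for Abca3, from -0.08 to 0.54 for Lamp3, from -0.11 to 0.52 for Etv5 and from -0.10 to 0.25 for Lpcat1. In HE against C they ran from -0.07 to 0.17 for Sftpd, from -0.19 to 0.10 for Abca3 and from -0.18 to 0.14 for Napsa.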

Other observations

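Other epithelial lists held calls in both directions. Of 14 alveolar type 1 markers, 3 rose and 3 fell in Hy against C, and 4 rose and 1 fell in HE against C. Over all tested genes 15.1% rose and 11.0% fell in Hy against C. In HE against C 11.7% of all tested genes rose and 8.66% fell. Ager, the receptor for advanced glycation end products and a type 1 cell marker, had 3138 ± 369.7 CPM in C (SD, n = 3), 4609 ± 650.1 CPM in Hy (SD, n = 4) and 5156 ± 772 CPM in HE (SD, n = 3). Its log2 fold change was 0.55 in Hy and 0.72 in HE (edgeR adjusted p = 0.042 and 0.0252). The Hy call held in 7 of 20 alternatives and was lost when C1, C2, C3, Hy1, Hy2, Hy4, HE1 or HE3 was left out (adjusted p = 0.0513 to 0.147). It was also lost with the replicate block (0.117) and with C and Hy alone in the fit (0.0665). The HE call was lost without C1, C2, C3, HE2 or HE3 (adjusted p = 0.0923, 0.0517, 0.100, 0.0969 and 0.0563). Igfbp2, a gene of mature type 1 cells, rose from 173 ± 76.1 CPM in C to 698 ± 42.0 CPM in HE (log2 fold change 2.01, edgeR adjusted p = 0.00455). In Hy it had 323 ± 84.5 CPM, overlapping C, and was also called there (log2 fold change 0.90, edgeR adjusted p = 0.0485). HE against Hy gave a log2 fold change of 1.11 for Igfbp2 and was not called (edgeR adjusted p = 0.739). Of 20 alternatives, the Igfbp2 call in HE against C was lost in 1, which left out C1, Hy4 and HE3 (0.0578). Emp2, a membrane protein of type 1 cells, fell from 2108 ± 124 CPM in C to 1344 ± 275 CPM in Hy (log2 fold change -0.65, edgeR adjusted p = 0.0267), and Pdpn, podoplanin, a surface marker of type 1 cells, from 219.7 ± 37.6 CPM in C to 113 ± 36.7 CPM in Hy (-0.96, adjusted p = 0.0334). Gprc5a, the third that fell, changed by -0.52 on that scale (edgeR adjusted p = 0.0494). The Emp2 call was lost without C1, C2, C3, Hy1, Hy2 or Hy4, the Pdpn call without C1, C2, C3, Hy2 or Hy4, and both with the replicate block.

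Of 10 genes of type 2 cells in transition after injury, 2 rose and 1 fell in Hy against C. In HE against C 0 rose and 1 fell, beside the shares over all genes given above. In Hy against C, Krt19 (log2 fold change 0.93) and Plaur (0.62) rose and Itgb6 (-0.79) fell. Their edgeR adjusted p-values were 0.0152, 0.0279 and 0.0324, and these calls were lost in 4, 7 and 8 of 20 alternatives. The median log2 fold change of the list was 0.42, with 8 genes above 0 and 2 below, beside 0.03 over all tested genes. Krt8, a keratin of that state, did not pass in Hy (194 ± 36.1 CPM in C and 266 ± 75.2 CPM in Hy, edgeR adjusted p = 0.168). None of the 14 alveolar macrophage genes and none of the 7 club cell genes was called by edgeR in any of the 3 comparisons. Over all tested genes edgeR called 26.1% in Hy against C, 0% in HE against Hy and 20.4% in HE against C.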
